A study of Homo sapiens with 5 samples.

Results

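MHH-ES-1 is an established human cell line from an Ewing sarcoma, a tumour of bone and soft tissue. Its gene expression was measured here in cells that had received a scrambled control mimic, a short synthetic RNA duplex with no intended microRNA sequence. The study transfected the line with mimics of miR-483-5p, of miR-483-3p or of the scrambled control, each at 50 nM with lipofectamine 2000, and took total RNA 48 h later for Affymetrix HG-U133 Plus 2 arrays. The values described are those of the 2 scrambled control arrays of 5 arrays in all. The cells grew in RPMI 1640 with fetal bovine serum, and the line has no further genetic change in the labels. One control array is labelled a repeat of the other, with no word on a separate culture, so their spread may be technical. All 5 arrays come from transfected cells, so the state before transfection was not measured.

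Ewing sarcoma is driven by a fusion of EWSR1 with a gene of the ETS transcription factor family, in most tumours FLI1, and MHH-ES-1 is known to carry EWSR1-FLI1. The fusion protein binds repeats of the GGAA motif and raises a set of genes that includes NKX2-2, CCND1 and CAV1, and it binds single ETS sites in promoters as well. The cell of origin is debated between mesenchymal stem cells and neural crest cells, and the tumour is told apart from neuroblastoma, rhabdomyosarcoma and lymphoma by lineage markers.

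Genes were ranked by signal, the brightness of a probe set after scaling of each array to one trimmed mean. Each of 19775 genes was represented by its brightest probe set, the one with the highest mean over both control arrays, and its percentile is the share of ranked genes that it exceeds. Percentiles order probe set signals and not amounts of transcript, since probes bind with different strength. As a reference for dim signals, the 95th percentile of 82 olfactory receptor genes was used, a signal of 105.1, since these receptors belong mainly to the sensory cells of the nose. Of all ranked genes, 8966, or 45.34%, were above this reference signal, and 8650 were above it in each array. The median gene had a signal of 82.90, the brightest 25% of genes lay above 314.2 and the brightest 10% above 826.7. A gene with more probe sets has more chances of a bright one: 29.8% of genes with 1 probe set were above the reference, against 71.2% of those with 4 or more. Of 6208 genes above the reference with more than 1 probe set, 2386 (38.43%) had all their other probe sets at or under it. Among genes described here these are ACKR3, ALK, APCDD1, BTNL9, CDK6, CDKN2A, CXCL8, CXCR4, ELF4, ELK3, ERBB2, ERF, ETS1, ETV3, ETV6, FASN, GAL, GAS6, GATA3, GLP1R, HOXB3, HOXD4, HOXD9, IL1B, KRT7, MYCN, NORAD, PAX8, PGD, PKM, POU3F2, PPIA, PTCH1, RAB12, RET, RPS14, SERPINA1, SLC2A1, SOX12, SOX15, SPDEF, SSX1, TGFB1, TGFBR2 and VIM.

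Of the 4 markers of the tumour, 3 were among the brightest 10% of genes. No other cell type was measured, so their brightness is not a test of the label. CD99, the surface protein used to diagnose Ewing sarcoma, had signals of 4524 and 5071 in the first and the second control array (mean 4797 ± 386, SD, n = 2), at percentile 99.2. CCND1, the gene of cyclin D1, which drives entry into the cell cycle, had 4351 and 4566 (mean 4459 ± 152, SD, n = 2) at percentile 99.1. NKX2-2, a homeobox transcription factor of neural development, had 2751 and 2920.3 (mean 2836 ± 119.5, SD, n = 2) at percentile 98.1. The other probe sets of CD99 and CCND1 were bright too, with means of 3718 and 2200.2. IGF1R, the receptor of insulin-like growth factors, was the exception at 249 and 177 (mean 213 ± 51.1, SD, n = 2) and percentile 67.6, above the reference signal but not among the brightest 25%. Its other 4 probe sets had means between 27.8 and 188.

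**Figure D1:**
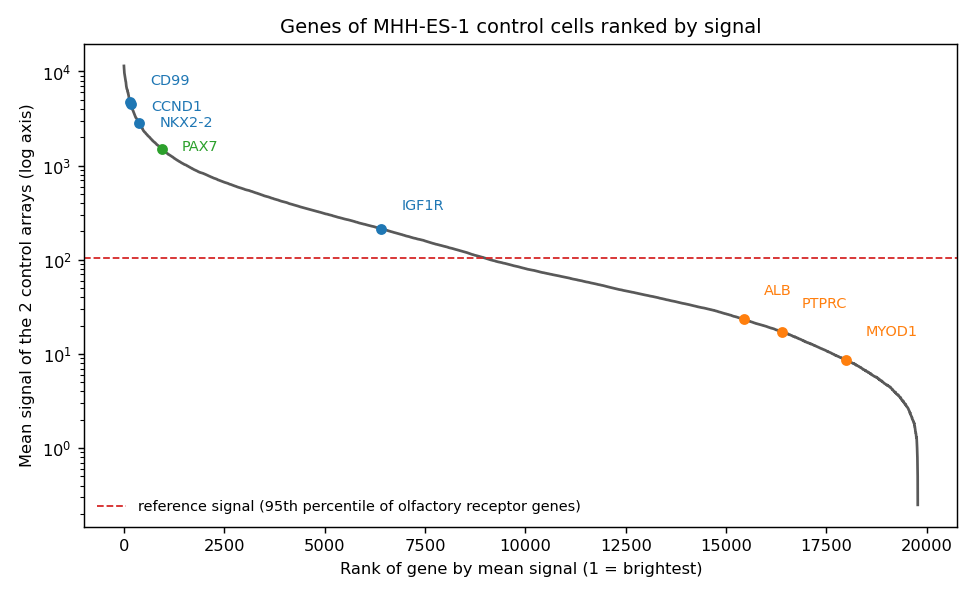
Mean signal of the 2 control arrays (log axis) against the rank of each of 19775 genes, with the reference signal of 105.1 as a dashed line. Blue points mark the Ewing sarcoma markers, the green point the neural crest gene PAX7, and orange points the lineage genes ALB, PTPRC and MYOD1 of liver, blood and muscle. CD99, CCND1 and NKX2-2 sit at the upper left, IGF1R lies above the dashed line, and the 3 orange points lie below it.

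Genes reported as induced by EWSR1-FLI1 were bright as a group. Of 31 measured members, 30 were above the reference signal, against 45.34% of all genes, and 18 were among the brightest 10%. Their median signal was 844 against 82.90 over all genes. This list, like the others, was chosen with earlier results of these data known. CAV1, the coat protein of caveolae, had 8073 and 10565 and was the only member among the 25 brightest genes. ID2, an inhibitor of differentiation factors, had 3637 and 4005, and NPY1R, a receptor of neuropeptide Y, had 2807 and 2913. RBM11, an RNA-binding protein gene, had 2456 and 2500.1, and FCGRT, the receptor that recycles IgG and albumin, had 2108 and 2191. These 5 lay at percentile 97.1 or higher. STEAP1, a metalloreductase of the cell surface, had 1963 and 2207, and EZH2, the histone methyltransferase of the Polycomb complex, had 1379 and 1241. PRKCB, a protein kinase C, had 1291 and 1249. UPP1, a uridine phosphorylase, was the exception with 6.8 and 8.4, under the reference. No cells without the fusion were measured, so the brightness of these genes is not a measure of induction.

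**Figure D2:**
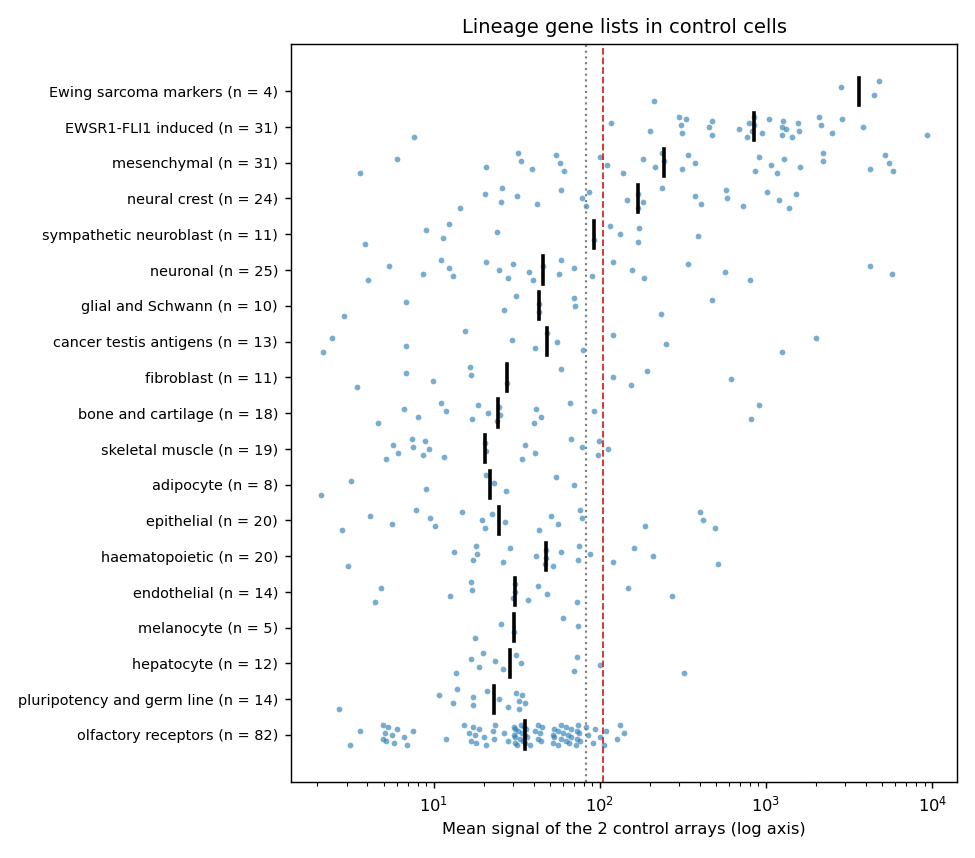
Mean signal of the 2 control arrays (log axis) for each gene of 18 lineage lists and of the olfactory receptors, 1 point per gene, with the list median as a black bar. The dotted line is the median of all genes and the dashed line the reference signal. The bars of the Ewing sarcoma markers, the EWSR1-FLI1 induced, the mesenchymal and the neural crest genes stand right of the dashed line, and those of muscle, fat, liver, melanocyte and pluripotency genes stand left of the dotted line.

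Genes of translation held most places at the top of the ranking. Of the 25 brightest genes, 15 encode cytosolic ribosomal proteins, and 41 of the 100 brightest do. RPS16, a protein of the small ribosomal subunit, led the ranking with 9818 and 13080.3, followed by RPS10 with 9079 and 12968 and TUBA1B, an alpha tubulin, with 8716 and 12776. The second array was the brighter one for all 3. Of 61 ribosomal protein genes measured, 59 were above the reference signal and 54 among the brightest 10%, with a median signal of 7146. EEF1A1, the elongation factor that brings aminoacyl-tRNA to the ribosome, had 8954 and 12433, and 45 of 51 translation factor genes were above the reference. PPIA, the folding enzyme cyclophilin A, had 8292 and 11269, and HSPD1, the mitochondrial chaperonin, had 7808 and 10312. ACTB, beta actin, had 8022 and 11274, and TUBB, a beta tubulin, had 7999 and 10862. ND4 and COX2, both encoded by the mitochondrial genome, had 7624 and 11541 and 7524 and 10096. Ribosomal protein genes have many near-identical pseudogenes, and 31 of the 100 brightest genes rested on a probe set with the suffix _x_at, whose probes can bind related transcripts, against 5.856% of all genes.

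Promoter sequences of bright and dim genes were set side by side, since ETS factors bind promoters. RefSeq windows of 300 bases, from 250 before to 50 after each transcript start on GRCh38.p14, matched 15381 ranked genes, and 9727 protein-coding genes with exactly 1 window were used. The following 100 bases before the start are shown for 3 genes among the 100 brightest whose windows hold an ETS core, for the bright HOX gene HOXD13 and for the dim muscle regulator MYOG. Capitals mark the ETS core CCGGAAG or its reverse complement CTTCCGG and the TATA box TATAAA or its reverse complement TTTATA.
RPS10 (chr6:34426070-34426169, minus strand, rank 2): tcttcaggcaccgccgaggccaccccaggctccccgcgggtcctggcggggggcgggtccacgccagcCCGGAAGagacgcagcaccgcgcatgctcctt
RPS14 (chr5:150449740-150449839, minus strand, rank 31): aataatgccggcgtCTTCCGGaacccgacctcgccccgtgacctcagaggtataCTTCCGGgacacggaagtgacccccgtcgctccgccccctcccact
CFL1 (chr11:65858181-65858280, minus strand, rank 55): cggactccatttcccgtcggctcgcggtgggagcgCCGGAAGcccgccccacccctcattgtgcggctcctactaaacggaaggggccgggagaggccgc
HOXD13 (chr2:176092621-176092720, plus strand, rank 908): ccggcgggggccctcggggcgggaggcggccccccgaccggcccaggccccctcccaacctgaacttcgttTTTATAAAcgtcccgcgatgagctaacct
MYOG (chr1:203086013-203086112, minus strand, rank 17809): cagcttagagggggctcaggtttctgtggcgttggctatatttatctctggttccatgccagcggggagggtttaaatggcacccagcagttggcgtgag
RPS10 and CFL1, the gene of the actin-severing protein cofilin, hold 1 ETS core each in this stretch, and RPS14 holds 2. In HOXD13 a TATA box and its reverse complement overlap, which gives 2 matches at one place. MYOG holds neither motif in the stretch shown.

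The ETS core was found in the windows of bright genes more often than in those of dim genes. On either strand it was in 307 of 1178 windows (26.1%) of the brightest 10%, in 23.9% for the rest of the brightest 25%, in 23.2% for other genes above the reference, and in 363 of 4552 (7.97%) for genes at or under it. It was in 16.6% of all 9727 windows, and in 15 of 46 windows (32.6%) of ribosomal protein genes such as RPS10 and RPS14. The share was not raised in every bright list: it was 2 of 12 (16.7%) for G2 and M phase genes and 1 of 14 (7.14%) for mesenchymal genes. The TATA box was in 13.7% of windows of genes at or under the reference, but its share did not fall steadily with brightness. It was 4.57% for genes above the reference outside the brightest 25%, 3.56% for the rest of the brightest 25% and 6.11% for the brightest 10%. It was in 5 of 46 windows (10.9%) of ribosomal protein genes and 20 of 55 (36.4%) of olfactory receptor genes, against 8.85% of all. GGAAGGAA, a tandem of the GGAA unit, was in 3.82% of windows of the brightest 10% and 3.73% of those at or under the reference. The CCAAT box was in 10 of 12 windows (83.3%) of G2 and M phase genes against 37.0% of all. Base composition moved with these shares: the median number of CpG dinucleotides was 27 in the brightest 10% and 15 at or under the reference, and the ETS core itself holds a CpG; the part of base composition in the result was not tested. The GGGCGG box of SP1 was in 72.5% and 51.3% of the same windows. The shares describe letters in these windows and not binding.

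Mesenchymal genes were among the bright lineage lists, with 21 of 31 above the reference signal, 12 among the brightest 10% and a median of 242. For comparison, 45.34% of all genes and 52.6% of protein-coding genes were above the reference. VIM, the intermediate filament of mesenchymal cells, had 4744 and 5709, LGALS1, the lectin galectin-1, had 5266 and 6277, and FN1, the matrix protein fibronectin, had 5341 and 5668. SPARC, a collagen-binding matrix protein, had 4245 and 4204, CDH11, a mesenchymal cadherin, had 2339 and 2073, and COL1A1, a chain of type I collagen, had 2299 and 2091. COL3A1, of type III collagen, had 917 and 909, and ZEB2, a repressor of epithelial genes, had 1128 and 1000.2. The same list held dim members. CD44, a hyaluronan receptor, had 43.1 and 35.3 over the brightest of 13 probe sets, NT5E, the ecto-nucleotidase CD73 of mesenchymal stem cells, had 22.2 and 19.1, CDH2, N-cadherin, had 55.1 and 67.4, and PDGFRA, a receptor of platelet-derived growth factors, had 39.4 and 28.0. All 4 lay under the reference in both arrays. The separate fibroblast list was dim, with 4 of 11 above the reference, 0 among the brightest 10% and a median of 27.8.

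Neural crest genes were divided in the same way, with 14 of 24 above the reference and 9 among the brightest 25%. Above the reference were 45.34% of all genes and 52.6% of protein-coding genes. PAX7, a paired box factor of neural crest and muscle precursors, had 1516 and 1498, though its other probe set had a mean of 186. ZIC2, a zinc finger factor of the dorsal neural tube, had 1399 and 1361, SOX9, a factor of crest and cartilage, had 1201 and 1189.8, and TWIST1, a factor of mesenchymal transition, had 1002 and 1019. PAX3 had 806 and 645 and ID3 627 and 539, so 6 such factors lay at percentile 85.4 or higher. SOX10, which marks migrating crest and its glial and melanocyte derivatives, had 13.5 and 27.1, SOX8 had 81.9 and 74.1 and TWIST2 had 48.9 and 67.3, all under the reference.

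Among neuronal genes 8 of 25 were above the reference signal and the median was 45.2, below that of all genes. UCHL1, the ubiquitin hydrolase PGP9.5, had 5055 and 6398, although its other probe set had a mean of 149. TUBB3, the beta tubulin of neurons, had 3805 and 4693, with 3212 in its other probe set. SYT1, a calcium sensor of synaptic vesicles, had 829 and 779, and ENO2, neuron-specific enolase, had 443 and 695. INA, the intermediate filament alpha-internexin, had 315 and 366, and SNAP25, of synaptic vesicle fusion, had 177 and 191, both above the reference. Other genes of vesicles and neurofilaments were under it: SYP, the gene of synaptophysin, had 14.9 and 26.4, CHGA, the gene of chromogranin A, 5.2 and 2.9, CHGB 16.1 and 6.1 and NEFL 27.7 and 22.1. Of the sympathetic neuroblast list, which serves to set neuroblastoma apart, 5 of 11 were above the reference. That share was near the 45.34% of all genes and below the 52.6% of protein-coding genes. GATA3 had 382 and 402, MYCN had 120.1 and 109.9 in the brightest of 10 probe sets, and PHOX2A, HAND2 and TH, the gene of tyrosine hydroxylase, had 28.2 and 19.8, 2.9 and 15.0 and 14.4 and 10.4.

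Of the 15 lists for other cell types, 12 had a median signal under that of all genes, all but the mesenchymal, neural crest and sympathetic lists. Only 1 of 19 skeletal muscle genes was above the reference: ACTC1, a striated muscle actin, at 97.3 and 126. MYOD1, MYOG and MYF5, the regulators of muscle fate, had 9.7 and 7.6, 9.6 and 9.1 and 9.3 and 2.9. None of the 8 adipocyte, 5 melanocyte or 14 pluripotency and germ line genes measured on these lists was above the reference. The last list leaves out SOX2, a factor of both pluripotent and neural stem cells, which was bright at 1555 and 1297. Their signals included 3.1 and 3.3 for PPARG, the regulator of fat cells, 17.7 and 18.0 for PMEL, a melanosome protein, and 8.9 and 17.3 for NANOG, a factor of pluripotency. Bone and cartilage genes were at or under the reference in 16 of 18 cases, with RUNX2, the regulator of osteoblasts, at 35.5 and 44.9. ALPL, alkaline phosphatase, had 777 and 1033 and HAPLN1, a link protein of cartilage matrix, 828 and 799.9. This list leaves out SOX9 and COL1A1, which were bright and were counted as neural crest and mesenchymal genes, so its count depends on where such genes were placed.

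Epithelial genes were above the reference in 4 of 20 cases. CDH1, E-cadherin, had 25.5 and 15.1 and EPCAM 28.1 and 16.6, and the keratins KRT5 and KRT14 had 10.6 and 5.0 and 12.9 and 6.0. The members above it were junction genes and 1 keratin: TJP1, the scaffold ZO-1, had 492 and 487, CLDN1 426 and 414, OCLN 401 and 405 and KRT7 171 and 201. Blood cell genes were above the reference in 4 of 20 cases, with PTPRC, the pan-leukocyte CD45, at 14.7 and 19.7 and KIT at 476 and 554. Endothelial genes were above it in 2 of 14 and glial genes in 2 of 10, with CDH5, the cadherin of vessels, at 32.4 and 29.3, GFAP, the filament of astrocytes, at 4.2 and 9.4 and S100B at 2.5 and 3.3. Hepatocyte genes were above it in 1 of 12, with ALB, albumin, at 27.3 and 19.2 and SERPINA1, alpha-1 antitrypsin, at 293 and 352. In an array of many cells a few cells with a gene and little of its RNA in every cell cannot be told apart.

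Cancer testis antigens, proteins otherwise made mainly in germ cells, were above the reference in 4 of 13 cases. PRAME, a repressor of retinoic acid signalling, had 1789 and 2206, and LIPI, a lipase reported in Ewing sarcoma, had 1325 and 1186, both among the brightest 10%. SSX1 had 234 and 266 and XAGE2 115 and 127. The MAGE genes named by the rule were dim, with MAGEA1 at 24.2 and 6.7, MAGEA4 at 18.3 and 40.8 and MAGEA10 at 4.7 and 9.0.

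HOX genes, which give cells their position along the body axis, were above the reference in 18 of 28 measured cases, with 4 among the brightest 10%. The share above it was 45.34% for all genes and 52.6% for protein-coding genes. HOXD13, the last gene of the HOXD cluster, had 1392 and 1743, HOXD10 had 1128 and 970.1 and HOXD11 had 820.4 and 868, and the HOXD13 probe sets that were not used had means of 780 and 1491. HOXC6 had 1312 and 1448, HOXC10 706 and 769.5 and HOXC11 559.5 and 738. In the HOXB cluster the brightest were HOXB13 with 445 and 612 and HOXB7 with 454 and 531. HOXD9 had 434 and 502, HOXD8 235 and 269, HOXC12 222 and 321, HOXC9 183 and 177 and HOXC4 199 and 156. HOXB2, HOXB3, HOXB4, HOXB5 and HOXD4 had means between 119.8 and 205, nearer the reference. The genes with the highest paralogue numbers, known for the posterior body, were thus bright in HOXD, while HOXC13 and HOXD12 were under the reference with 101 and 88.3 and 2.1 and 2.5. HOXA2 with 7.4 and 4.4 was the only HOXA gene with a probe set of its own here.

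**Figure D3:**
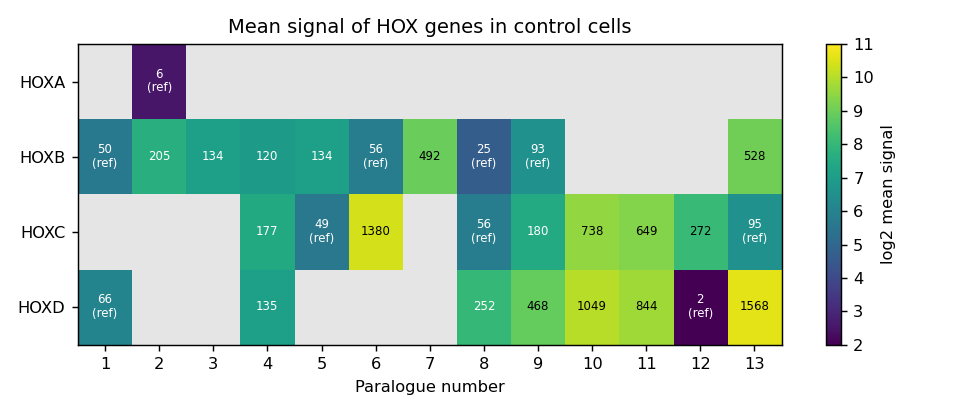
Mean signal of the 2 control arrays for 28 HOX genes, by cluster (vertical) and paralogue number (horizontal), with colour giving the log2 mean signal and the printed number the linear mean. Genes at or under the reference signal of 105.1 carry the tag (ref), and grey cells have no gene ranked here. HOXD13, HOXC6, HOXD10 and HOXD11 are the 4 brightest cells.

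In the ETS family, which supplies the fusion partner, 13 of 27 genes were above the reference. That share lay between the 45.34% of all genes and the 52.6% of protein-coding genes. FLI1 had 841 and 1130.4, at percentile 91.9, while ERG, FEV and ETV1, partners in rarer fusions, had 34.6 and 25.8, 61.6 and 22.7 and 104 and 99.3. FLI1 has 6 probe sets here, and the others ranged from 16.5 to 678. The fusion keeps the 3' part of FLI1, so its signal does not separate the fused from the unfused transcript. EWSR1, the RNA-binding partner, had 1268 and 1082. The brightest ETS gene was ELK3, a repressor that joins serum response factor, with 1325 and 838, a wider spread between arrays than FLI1. ERF, an ETS repressor, had 654 and 647, ELF2 604 and 508, ETV3 529 and 478 and ELK4 517 and 399. ETS2 had 393 and 394, ELK1 343 and 349, GABPA 324 and 261, SPDEF 201 and 208, ELF4 162 and 195, ETV6 283 and 117 and ETS1 178 and 113, the last 2 higher in the first array.

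SOX genes were above the reference in 7 of 19 cases, and 6 of these 7 were among the brightest 25%. SOX2 was the brightest of them, with the values given above, and SOX4 had 853 and 789.6, SOX11 716 and 676, SOX12 483 and 482 and SOX6 509 and 399, beside SOX9 above. SOX15 had 231 and 239.8 in one of 2 probe sets that disagree, since the other had a mean of 4.7. SOX1, SOX3, SOX5 and SOX7 were under the reference, with SOX5 at 90.6 and 93.6.

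Homeobox factors outside the HOX clusters varied by family. Of 10 NKX genes 3 were above the reference, led by NKX2-2, and of 12 LIM homeobox genes ISL1 alone, at 176 and 168. POU3F2, a factor of neural precursors, had 393 and 391, DLX2 289.9 and 272, SIX3 252 and 298, and IRX3 127 and 127. PAX8 had 547 and 615 in 1 of 8 probe sets, and the other 7 lay between 7.5 and 97.0, under the reference. PAX6 had 332 and 303, and PAX2, PAX4 and PAX5 were under the reference. Of 39 FOX genes 14 were above it, led by FOXM1, a factor of mitosis, with 839 and 969, and FOXK2 with 821 and 834. KLF6 had 1229 and 1225, while KLF4, a factor of stem cells, had 35.3 and 30.3. TBX1 had 596 and 758, and TBR1 and EOMES had 18.8 and 46.4 and 40.7 and 61.4. Nuclear receptors were above the reference in 12 of 39 cases, with RXRA, the retinoid X receptor, at 486 and 610.0, NR2F1 at 381 and 367 and the estrogen receptor ESR1 at 59.9 and 75.5.

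Factors of growth were the brightest transcription factor list, with 15 of 17 E2F and MYC family genes above the reference and a median of 439.6. E2F1, which turns on S phase genes, had 2858 and 3630.2, though its other probe set had a mean of 259, and MYC had 2673 and 2833 in its only probe set. MAX, the partner of MYC, had 920.2 and 887, E2F4 835 and 853 and MYBL2 636 and 672. JUND, an AP-1 factor, had 2225 and 2139, JUN 555 and 588, EGR1 343 and 304 and FOS 341 and 295. FOSB and FOSL1 had 6.4 and 7.0 and 32.9 and 25.4, under the reference. Over the 18 families listed, 121 of 283 transcription factor genes (42.8%) were above the reference signal. This share was near the 45.34% of all genes and below the 52.6% of protein-coding genes.

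Receptor tyrosine kinases, the receptors of most growth factors, were above the reference in 24 of 55 cases. Their share was near the 45.34% of all genes and below the 52.6% of protein-coding genes. Only 6 of these kinases were among the brightest 25% and 1 among the brightest 10%. DDR2, a receptor of fibrillar collagen, had 1082 and 1092, FGFR1, a receptor of fibroblast growth factors, 654 and 676, and EPHA3, an ephrin receptor, 617 and 486. KIT, the stem cell factor receptor, had 476 and 554 and RYK, a WNT receptor, 345 and 413. IGF1R at percentile 67.6 lay below these. ALK had 199.7 and 184, ROR1 220.1 and 187 and ERBB2 138 and 148, above the reference but less bright. MET, the receptor of hepatocyte growth factor, had 93.0 and 73.4 and ERBB3 28.2 and 55.3, both under the reference. EGFR had 65.7 and 124, with its mean under the reference. Its value in the second array was above 105.1 but under 129, the reference from that array alone. The count of 24 depends on the settings: it was 12 when all probe sets of a gene were averaged, and 50 with the reference at the 40th percentile of all probe sets.

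Other receptor families were led by few bright genes. Of 25 integrins 8 were above the reference: ITGB1, the beta-1 chain shared by many matrix receptors, had 3305 and 3399, ITGAE 2133 and 1965 and ITGAV 491 and 478, while ITGA2 and ITGA3 had 47.1 and 43.7 and 11.3 and 7.9. Of 15 frizzled and WNT coreceptor genes 9 were above it, with FZD1 at 912 and 861 and LRP6 at 772 and 605. NOTCH2 had 816 and 828, the Notch target HES1 828 and 732 and NOTCH4 67.0 and 26.8. TNFRSF10B, a receptor of the death ligand TRAIL, had 918 and 792 and FAS 619 and 617, while TNFRSF10A, TNFRSF10C and TNFRSF10D, which also bind TRAIL, had 52.2 and 57.3, 33.6 and 42.0 and 107 and 87.4, with means under the reference. NGFR, the low-affinity neurotrophin receptor, had 626 and 522. IL1RAP, the interleukin-1 receptor accessory protein, had 1397 and 1376, IFNGR2 834 and 877 and IL6ST, the shared chain gp130, 662 and 637, in a list with 13 of 46 above the reference. Of 36 neuropeptide and hormone receptors 4 were above it: NPY1R, CALCRL with 672 and 675, NPY5R with 309 and 353 and GLP1R with 104 and 123. Over all receptor lists, which also hold Notch ligands and HES1, 92 of 276 genes (33.3%) were above the reference. This was below the 45.34% of all genes and the 52.6% of protein-coding genes.

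The class of growth factor, cytokine and peptide genes was the dimmest of the 6 classes of lists, with 49 of 248 (19.8%) above the reference signal. It also holds IGF binding proteins, WNT antagonists and receptor and effector genes of the hedgehog pathway, so the share is not one of ligands alone. The bright ones were few. MIF, macrophage migration inhibitory factor, had 4501 and 5129, HDGF 3084 and 3387 and GRN, progranulin, 985 and 888. IGFBP2, a binding protein of insulin-like growth factors, had 5244 and 6645, while IGF1 itself had 43.5 and 52.5. FGF13, an intracellular member of the FGF family, had 1055 and 1039, and FGF2 had 96.4 and 87.7. WNT5A had 881 and 834, TGFB1 1083 and 970.4 and VEGFA, the vessel growth factor, 1218 and 836. APCDD1, an inhibitor of WNT signalling, had 3598 and 3521. Of the hedgehog list, the receptor PTCH1 had 588 and 544 and the effectors GLI1 and GLI2 183 and 219 and 355 and 377, while the ligands SHH, IHH and DHH had 80.5 and 46.5, 17.0 and 15.9 and 19.6 and 13.9.

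Neuropeptide genes were above the reference in 7 of 20 cases and chemokine genes in 1 of 36. GRP, gastrin-releasing peptide, had 1817 and 1656 and CCK, cholecystokinin, 1722 and 1450.3, both among the brightest 10%. NTS, neurotensin, had 697 and 659.8, NPY 309 and 319 and GAL, galanin, 295 and 263. TAC1, VIP and SST had 6.7 and 3.6, 3.3 and 9.8 and 58.0 and 44.5, under the reference. CXCL8, the chemokine interleukin-8, had 2559 and 3028 and was the only chemokine above it, but its 2 probe sets disagree, the other having a mean of 24.1. CXCL12, CCL2 and CCL5 had 68.9 and 98.5, 53.5 and 38.6 and 42.4 and 37.0. Of 55 interleukins and interferons 2 were above the reference, IL1B with 118 and 135 and IFNA17 with 131 and 150.2, both close to it.

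Ligands and receptors of the same pair were read side by side for 20 pairs. In 5 pairs both genes were above the reference: NPY with NPY1R and NPY5R, ARTN, a GDNF family ligand, with RET at 143 and 121, WNT5A with ROR1, and TGFB1 with TGFBR2 at 158 and 108. In 10 pairs the ligand alone was above it: CCK lay beside CCKAR with 56.3 and 29.2 and CCKBR with 46.0 and 68.2, GRP beside GRPR with 88.8 and 78.7, and GAL beside GALR1 with 15.9 and 5.8. PDGFC had 354 and 301 beside PDGFRA, and VEGFA stood beside KDR with 33.9 and 27.6. GAS6 had 303 and 321 beside AXL with 36.5 and 50.6, CXCL8 stood beside CXCR1 and CXCR2 with 11.4 and 13.6 and 32.4 and 3.3, and WNT5A beside ROR2 with 4.5 and 3.5. In 4 pairs the receptor alone was above it: KIT, whose ligand KITLG had 95.9 and 91.9, IGF1R, CXCR4 with 145 and 145 and ACKR3, which also binds CXCL12, with 687 and 628. IGF1R was paired with IGF1 alone, and no other ligand of IGF1R was among the pairs. For HGF and MET both were under the reference, with HGF at 79.7 and 44.0.

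**Figure D4:**
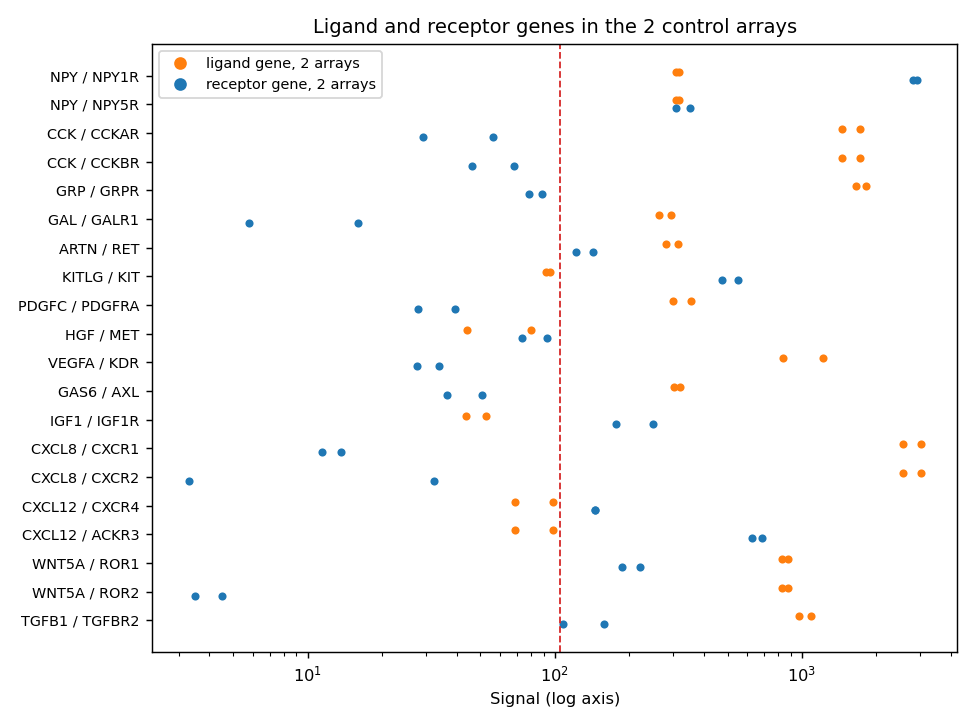
Signals of ligand (orange) and receptor (blue) genes in each of the 2 control arrays (log axis) for 20 pairs, with the reference signal of 105.1 as a dashed line. Both colours lie right of the line for NPY with its receptors, ARTN with RET, WNT5A with ROR1 and TGFB1 with TGFBR2. For HGF and MET both lie left of it.

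Metabolic genes were bright as a class, with 227 of 322 (70.5%) above the reference signal and 193 (59.9%) among the brightest 25%. Of all genes 45.34% and of protein-coding genes 52.6% were above the reference. In glycolysis ENO1, enolase 1, had 7642 and 10056, GAPDH 6537 and 9488, LDHB 6683 and 8988 and LDHA, lactate dehydrogenases, 5839.6 and 7045. PKM, pyruvate kinase, had 4436 and 5521 and ALDOA, aldolase A, 4227 and 5536. Of 28 glycolysis genes 12 were among the brightest 10%, and 11 were at or under the reference, among them the isozymes HK3 with 4.2 and 6.8, PGK2 with 36.4 and 24.2 and ALDOC with 75.4 and 92.6. The glucose transporters were less bright: SLC2A1 had 206 and 283, SLC2A3 353 and 279.6 and SLC2A4, the insulin-responsive transporter, 4.7 and 3.2. Gluconeogenesis and glycogen genes were above the reference in 2 of 12 cases, with PCK1 and FBP1 at 3.4 and 3.4 and 55.6 and 29.6.

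Of 72 nuclear genes of oxidative phosphorylation, 66 were above the reference and 60 among the brightest 10%, with a median of 1870.4. ATP5F1B, the catalytic beta chain of ATP synthase, had 5603 and 7590.3, COX6C, of cytochrome c oxidase, 5946 and 6903, and UQCRB, of complex III, 4405 and 5868. The tissue forms COX6A2 and COX7A1, known from heart and muscle, had 52.7 and 58.8 and 3.6 and 3.5. ATP5MF, also under the reference, had 9.8 and 7.7 in the only probe set that lists it alone. In the citrate cycle list 24 of 25 were above the reference, with CS, citrate synthase, at 2964 and 3256, MDH2 at 2722 and 3003 and IDH1, the cytosolic isocitrate dehydrogenase, at 3158 and 3114. PGD, of the pentose phosphate pathway, had 3646 and 4242, while TKTL1 had 49.2 and 29.1.

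All 23 nucleotide synthesis genes and all 16 cholesterol synthesis genes measured were above the reference. TYMS, thymidylate synthase, had 2922 and 4698, brighter in the second array, PAICS, of purine synthesis, 3233 and 3422, and RRM2, of ribonucleotide reductase, 2171 and 3069. SQLE, squalene epoxidase, had 3121 and 2949, FDPS 2661 and 2846 and LSS 1703 and 1722. FASN, fatty acid synthase, had 3719 and 3664, and SCD, the stearoyl-CoA desaturase, 3659.5 and 3590.0. ACSL1 and ACSL5 had 31.9 and 21.1 and 63.4 and 68.4, under the reference. In serine and one-carbon metabolism PSAT1 had 2592 and 2920.1, PHGDH, the first enzyme of serine synthesis, 2387 and 3058 and MTHFD2 2224 and 2329, whereas SHMT1 had 13.2 and 30.7 and GLDC 77.9 and 48.3. The glutamine transporter genes SLC38A2 and SLC1A5 had 3278 and 3861 and 1218 and 1222, and GLUL, glutamine synthetase, 2109.9 and 2436. SLC7A11, the cystine transporter, had 1225 and 729, higher in the first array. ODC1, of polyamine synthesis, had 2812 and 3183, and ARG1, the liver arginase, 25.1 and 45.0.

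**Figure D5:**
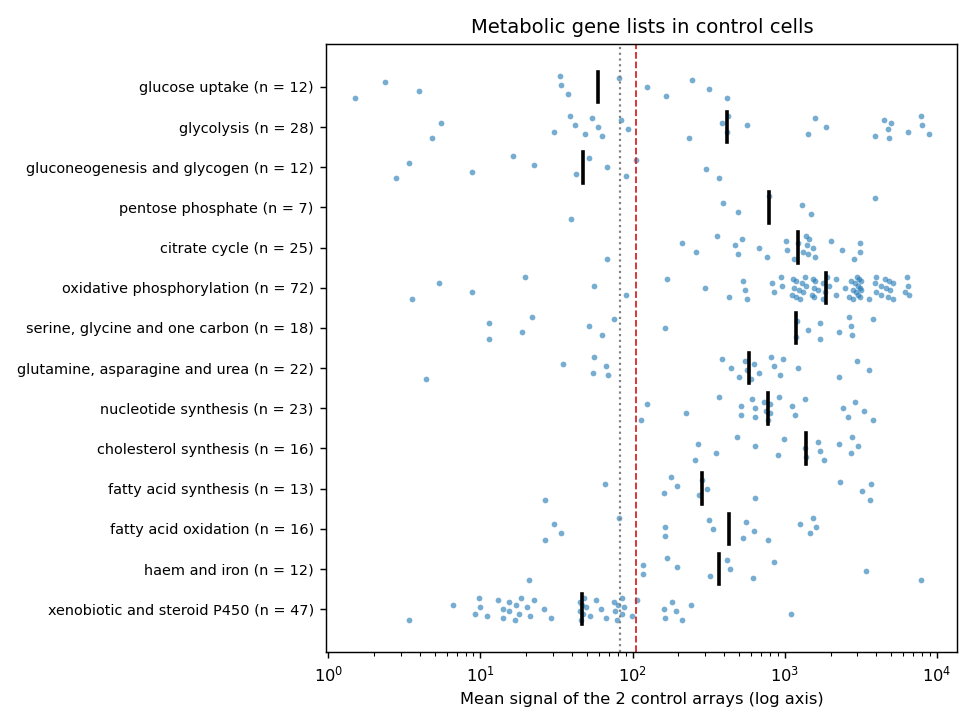
Mean signal of the 2 control arrays (log axis) for each gene of 14 metabolic lists, 1 point per gene, with list medians as black bars, the median of all genes as a dotted line and the reference signal as a dashed line. The bars of oxidative phosphorylation, cholesterol synthesis, the citrate cycle and serine and one-carbon genes are the 4 farthest to the right, and those of glucose uptake, gluconeogenesis and P450 genes stand left of the dotted line.

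Fatty acid oxidation genes were above the reference in 12 of 16 cases, with ECHS1 at 1589.8 and 1634, ACADM at 1334 and 1193 and CPT1C at 20.2 and 47.8. FTL, the ferritin light chain, had 6863 and 8845 and TFRC, the transferrin receptor, 3488 and 3374, while ALAS2, the haem enzyme of red cells, had 14.9 and 26.9. Cytochrome P450 genes, which metabolise drugs and steroids, were above the reference in 8 of 47 cases, with CYP4F22 at 1134 and 1058 and CYP1A1 at 9.6 and 21.0.

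Genes of the cell cycle were bright, with 17 of 18 G2 and M phase genes above the reference. CCNB1, cyclin B1, had 2025 and 2263, BIRC5, survivin, 1769 and 2059, and CDK1, the mitotic kinase, 1568 and 2007. CDC20, an activator of the anaphase-promoting complex, was the exception with 71.0 and 82.9 in its only probe set. In the G1 list CDK4, the partner of cyclin D1, had 2673 and 3089, CDK6 828 and 864 and the inhibitor CDKN1B, p27, 1299 and 1061. The inhibitors CDKN1A, p21, and CDKN2B, p15, had 25.4 and 66.6 and 5.9 and 2.2, and CDKN2A had 252 and 151, above the reference in 1 of 3 probe sets, with means of 62.1 and 7.85 in the others. CDK6 likewise rests on 1 probe set, since its other 6 lay between 12.5 and 55.8. CCNE1, cyclin E1, had 101 and 80.7, while CCND2 had 765 and 580.1.

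Noncoding genes were mostly dim, with 7.08% of 2657 long noncoding RNA genes above the reference against 52.6% of 16520 protein-coding genes. These classes were not matched for the number of probe sets per gene, and its part in the gap was not tested. ZFAS1, a host of small nucleolar RNAs, had 4254 and 4478, and NORAD, which binds PUMILIO proteins, had 1216 and 1316, both among the brightest 10%.

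The arrays differed least for bright genes below the very top. The median fold between them was 1.61 for the dimmest 25% of genes, 1.14 between percentiles 50 and 75, and 1.08 between percentiles 90 and 99. For the brightest 1%, such as RPS16 and CAV1, the second array was the brighter one by a median of 0.29 on the log2 scale, although the median probe set signals of the arrays were 44.40 and 43.20. Over all genes the log2 signals of the 2 arrays correlated at Pearson r = 0.9579 and Spearman rho = 0.9696. The units of this correlation are genes, and genes are not independent replicates. The 3' to 5' ratio, a sign of RNA integrity, was 1.016 and 0.9963 for GAPDH and 1.065 and 1.040 for ACTB. Among genes above the reference the largest differences between the arrays were in FRG2EP with 507 and 131, CASTOR2 with 218 and 62.5, RAB12, a small GTPase, with 413 and 158, and TBL1X, of a corepressor complex, with 278 and 111, all higher in the first array. KCNS1, a potassium channel subunit, with 58.2 and 165, BTNL9 with 57.0 and 161 and PLEK2 with 78.5 and 199 were higher in the second.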

How the data were processed

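RNA of MHH-ES-1 cells was hybridised to Affymetrix HG-U133 Plus 2 arrays, 1 colour and 1 array per sample, per the labels' protocols. The deposited values are probe set intensity on a linear scale. The trimmed mean (2% off each end) was 150.0 in either control array, which shows scaling to a common target before deposit. GCOS and Partek are named in the submitters' processing notes with no version or role. The method behind each signal was not given in the sources used here. Detection calls were not among the values used, so dim probe sets cannot be placed above or below background.

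Of 54675 probe sets, 62 are controls and did not enter. The platform annotation gives 41097 probe sets 1 gene symbol, 1801 several and 11777 none here. Of the first, 41043 matched RefSeq genes of GRCh38.p14, used for names and promoter windows. Genes were named only from probe sets with 1 symbol. Signal in probe sets listed for several genes did not enter, so a gene that is dim here may be brighter there. RPL36A, with 10.4 and 11.0, and EIF3C, with 7.3 and 7.9, each rest on 1 probe set. The group came from the labels. No test was run, since 1 group of 2 arrays is described, and the number of arrays limits the precision. The members and the 81 gene lists were chosen with earlier results of these data known. The genes named are the 25 brightest, the markers, in each list up to 6 brightest members and 4 at or under the reference, each HOX, ETS and SOX gene above it, and the 10 with the largest difference between the arrays. Not all of them are printed. EWSR1, EZH2, PRKCB, COL3A1, ZEB2, ALK, ROR1, ERBB2, MET, CDKN2A, HOXC13, HOXD12, the noncoding genes, the promoters printed and the genes of the ligand and receptor pairs were chosen after their values were seen. Alternatives changed the probe set that stands for a gene, the reference signal, the scaling, the mean and the arrays used. The ranking step was run on simulated data in which the brightest probe set of each gene had equal signals in both arrays. That run checks the step itself and not the order of genes in these data. Python 3.11.15, numpy 2.4.6, pandas 2.3.3 and matplotlib 3.10.9 were used.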

Additional observations from a re-analysis of the deposited data

How the results depend on the processing

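Of 68 alternative values for 8 counts and medians, 62 were within 1.5 times the count reported or, for the median percentile, within the spread between the arrays, and 6 were not. With the reference signal at the 40th percentile of all probe sets, 29.1, the genes above it were 14682 in place of 8966. Those of the growth factor class were 142 in place of 49 and the receptor tyrosine kinases 50 in place of 24. With the mean of the log2 signals of all probe sets of a gene, the receptor tyrosine kinases above the reference were 12, and the median percentile of the Ewing sarcoma markers was 99.2 in place of 98.6. It was 98.8 without probe sets with the suffix _x_at. Under the settings run, 3 of the 4 markers were among the brightest 25% of genes each time, the percentile of IGF1R ran from 66.4 to 70.3, and the HOX genes above the reference ran from 15 to 25. Without the first control array the reference was 129, and 8260 genes were above it. Without the second array the reference was 89.8, and 9652 genes were above it. Of the 100 brightest genes, 55 were shared with the mean of probe sets and 75 without the suffix. No paired analysis was possible because no groups are compared. Signals near the reference cannot be ordered at this spread between arrays.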

Other observations

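Probe sets outside the ranking were bright as well. Of 1801 probe sets listed for several genes, 775 were above the reference signal, and of 11721 with no gene symbol here, 1098 were, with the highest at 9420.5. The 27 probe sets for the bacterial genes dap, lys, phe, thr and trp, which human RNA should not contain, had mean signals from 1.150 to 45.15 with a median of 6.850, all under the reference. The 100 brightest genes held 11.39% of the summed signal of all ranked genes, and the brightest 10% held 60.58%.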
